A study of Sus scrofa with 16 samples.

Results

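Expression of 6 genes was described in 2 skeletal muscles of the pig: FHL2, ABLIM1 and LMCD1, whose proteins carry LIM domains, and ABRA, CNN1 and SMTN, whose proteins bind actin. They were chosen by name, with their values between muscles and feeding levels already known, and are 6 of the 6765 genes that the platform annotation names by a single symbol. The annotation gave them 12 of 24123 probe sets. Of these, 9 reached a log2 value of 4 in at least 4 of the 16 arrays, which was the condition for testing. A gene with several probe sets is described by the one of highest mean, called its leading probe set.

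The arrays came from 8 Iberian pigs, a fat Mediterranean breed, slaughtered at 211 days of age, and each animal gave 1 array of diaphragm, the main breathing muscle, and 1 of psoas major, a loin muscle. Animals 1 and 4 were males on the high feeding level, and animals 2 and 3 were males under 20% restriction. Animals 6 and 7 were females on the high level, and animals 5 and 8 were females under 20% restriction. The same pelleted diet was given to all of them until restriction. The sources used here do not state the castration of males or the start of restriction, and groups are as the labels name them. Values are the authors' GCRMA values on the log2 scale, in which a difference of 1 means a doubling and values near the lower end are compressed. Levels of different probe sets cannot be set against each other.

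A LIM domain is a zinc-binding fold through which proteins dock to other proteins, often at the actin cytoskeleton, the Z-disc of the sarcomere or in the nucleus. Serum response factor (SRF) is a transcription factor of muscle and cytoskeletal genes. Its myocardin-related coactivators are held in the cytoplasm by actin monomers, and when actin assembles into filaments they enter the nucleus and switch on SRF targets. ABRA, also called STARS, is an actin-binding protein of striated muscle known to promote this step, FHL2 is known as an SRF target that can compete with these coactivators, and CNN1 is an SRF target best known from smooth muscle.

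All 16 arrays had medians between 3.56 and 3.62, and arrays of the same muscle correlated between 0.956 and 0.987, so that no array stood apart. Of 12 skeletal muscle fibre markers, 9 had a probe set, and all 9 lay at or above 4 on every array. Between the muscles, 3094 of 11467 tested probe sets were called by limma at an adjusted p under 0.05 (27.0%). The muscle fit had no term for the animal, so that its standard errors (SE) do not use the pairing of the muscles by animal. Between feeding levels limma called 0, with 1451 at an unadjusted p under 0.05 in the animal means, 1101 in diaphragm and 1291 in psoas. The muscle and feeding values of the 6 genes chose them and are given below without a test.

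The 6 genes fell into 3 patterns between the muscles. FHL2 and ABLIM1 were higher in diaphragm, by 5.78-fold and 4.84-fold. ABRA and CNN1 were higher in psoas, by 3.73-fold and 4.22-fold, and LMCD1 and SMTN had similar means in both. The values of the 2 muscles did not overlap for FHL2, ABLIM1 and CNN1, which is 3 of the 6 genes, beside 3.72% of all tested probe sets. ABRA was higher in psoas in every animal too. Psoas was higher in 8 of 8 animals for 11.7% of all tested probe sets and lower in 8 of 8 for 9.73%.

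**Figure D1:**
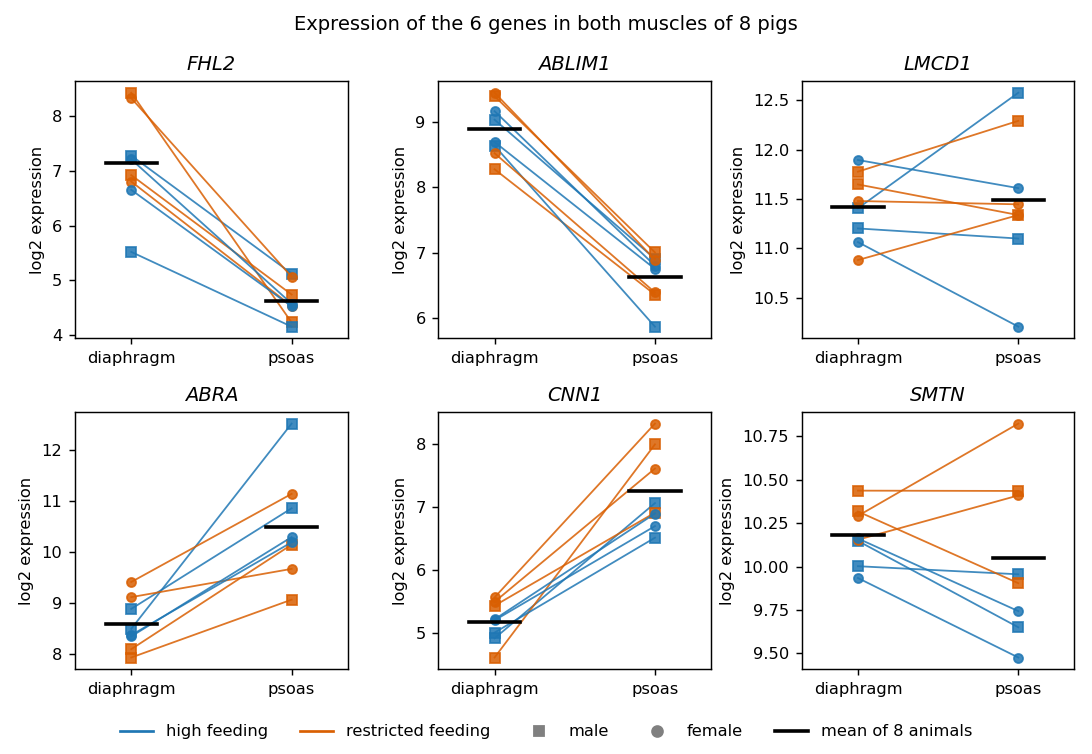
Log2 expression (vertical axis, a separate scale for each gene) in diaphragm and psoas of 8 pigs, with a line for each animal, colour for the feeding level, squares for males, circles for females and a black bar for the mean of 8. All 8 lines fall from diaphragm to psoas for FHL2 and ABLIM1, all 8 rise for ABRA and CNN1, and the lines of LMCD1 and SMTN run both ways.

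FHL2 is a LIM-only adaptor protein of heart and skeletal muscle. Its single probe set read 7.28, 5.52, 7.21 and 6.65 in the diaphragm of animals 1, 4, 6 and 7 on the high level, and 8.43, 6.92, 6.81 and 8.33 in restricted animals 2, 3, 5 and 8. In psoas it read 5.12, 4.15, 4.57 and 4.52 on the high level and 4.22, 4.74, 4.53 and 5.06 under restriction. Every diaphragm array was above every psoas array, and restricted animals 2 and 8 were highest in diaphragm. The mean over 8 animals was 7.14 ± 0.94 (log2, SD) in diaphragm and 4.61 ± 0.35 in psoas, a psoas minus diaphragm difference of -2.53 ± 0.32 (SE). Within animals the difference ranged from -4.21 in animal 2 to -1.37 in animal 4. In whole muscle, fewer cells of a type and less RNA per cell cannot be told apart.

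ABLIM1 is an actin-binding LIM protein of the cytoskeleton. Its leading probe set read 9.04, 8.64, 9.17 and 8.70 in diaphragm of animals 1, 4, 6 and 7 on the high level, and 8.28, 9.40, 8.52 and 9.45 in restricted animals 2, 3, 5 and 8. In psoas it read 6.91, 5.87, 6.80 and 6.75 on the high level and 6.36, 7.01, 6.39 and 6.89 under restriction. All diaphragm arrays were above all psoas arrays, and in both muscles animal 3 was among the highest and animal 2 among the lowest. The means were 8.90 ± 0.43 and 6.62 ± 0.39 (log2, SD, n = 8), a difference of -2.28 ± 0.20 (SE). The within-animal differences had an SD of 0.30, against 0.86 for FHL2, and lay between -2.77 and -1.92.

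A second ABLIM1 probe set had a muscle difference of -2.58. It read 7.32 to 9.37 in diaphragm and 5.29 to 6.06 in psoas, again with no overlap. One more was under 4 in all 8 psoas arrays, so that only a bound can be given, at least 1.74-fold higher in diaphragm. The last was under 4 on every array. Over the 8 diaphragm arrays the leading probe set correlated with the second at 0.855 and with the bounded one at 0.898, and over psoas at 0.610 and 0.401. These are descriptions over 8 animals whose probe sets share RNA and array.

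ABRA was higher in psoas in 8 of 8 animals. Its probe set read 8.49, 8.88, 8.37 and 8.34 in the diaphragm of animals 1, 4, 6 and 7 on the high level, and 7.93, 8.10, 9.11 and 9.41 in restricted animals 2, 3, 5 and 8. In psoas it read 12.51, 10.85, 10.19 and 10.29 on the high level and 9.06, 10.14, 9.67 and 11.14 under restriction. The ranges met only in that the psoas of animal 2 lay under the diaphragm of animals 5 and 8, and the psoas of animal 1 was far above all others. The means were 8.58 ± 0.51 (log2, SD, n = 8) and 10.48 ± 1.04, a difference of 1.90 ± 0.38 (SE). Animal 1 differed by 4.02 and animal 5 by 0.55, and without animal 1 the mean difference was 1.60.

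CNN1 encodes basic calponin, an actin-binding protein that restrains actomyosin in smooth muscle. Its probe set read 4.91, 5.001, 5.20 and 5.21 in the diaphragm of animals 1, 4, 6 and 7 on the high level, and 5.43, 4.60, 5.49 and 5.56 in restricted animals 2, 3, 5 and 8. In psoas it read 7.06, 6.51, 6.70 and 6.90 on the high level and 6.91, 8.0, 7.61 and 8.33 under restriction. All psoas arrays were above all diaphragm arrays, and the 3 highest were psoas of restricted animals 3, 5 and 8. The means were 5.18 ± 0.33 and 7.25 ± 0.65 (log2, SD, n = 8), a difference of 2.08 ± 0.19 (SE). It was positive in 8 of 8 animals, from 1.48 in animal 2 to 3.40 in animal 3.

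SMTN encodes smoothelin, a cytoskeletal protein of contractile smooth muscle with a calponin homology domain. Its leading probe set read 10.002, 10.15, 10.16 and 9.93 in the diaphragm of animals 1, 4, 6 and 7 on the high level, and 10.44, 10.32, 10.15 and 10.29 in restricted animals 2, 3, 5 and 8. In psoas it read 9.96, 9.65, 9.74 and 9.48 on the high level and 10.44, 9.90, 10.41 and 10.82 under restriction. The muscles overlapped, and psoas values spread to both sides of the diaphragm values. The means were 10.18 ± 0.17 and 10.05 ± 0.46 (log2, SD, n = 8), a difference of -0.13 ± 0.13 (SE). Psoas was above diaphragm in 2 of 8 animals, restricted animals 5 and 8. Of the 2 other SMTN probe sets, one reached 4 in the psoas of animals 2 (4.08) and 8 (4.43) and in no other array, and the other was under 4 throughout.

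LMCD1, also called dyxin, is a LIM protein known to restrain GATA factors and to promote calcineurin signalling in heart muscle. Its leading probe set read 11.41, 11.20, 11.90 and 11.06 in diaphragm of animals 1, 4, 6 and 7 on the high level, and 11.78, 11.65, 11.48 and 10.88 in restricted animals 2, 3, 5 and 8. In psoas it read 12.58, 11.10, 11.61 and 10.21 on the high level and 12.29, 11.34, 11.45 and 11.34 under restriction. The muscles overlapped, with both the highest value, animal 1, and the lowest, animal 7, in psoas. The means were 11.42 ± 0.35 and 11.49 ± 0.73 (log2, SD, n = 8), a difference of 0.07 ± 0.25 (SE) that was -0.09 without animal 1. The other LMCD1 probe set gave 0.35, and it followed the leading one at a correlation of 0.981 over the 8 psoas arrays and 0.822 over diaphragm.

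The size of the muscle differences can be read against the other genes. Among 4571 tested genes with 1 probe set each, 20 were past 4-fold in either direction, 6 higher in psoas and 14 higher in diaphragm (0.438%). FHL2, ABLIM1 and CNN1 were 3 of these, and they were chosen with these values known.

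**Figure D2:**
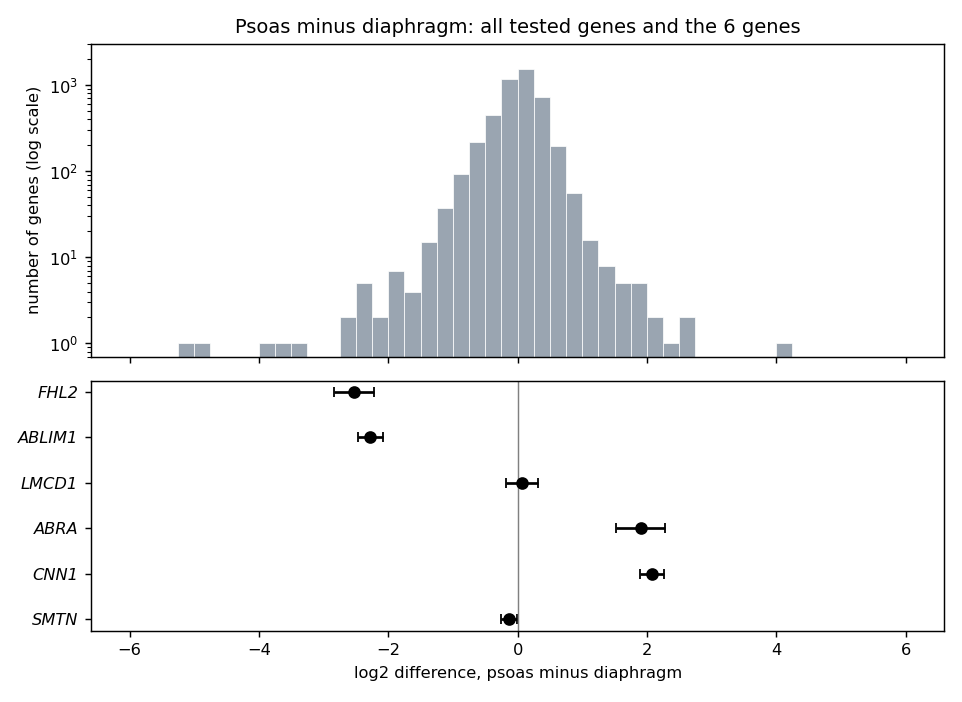
Top, number of tested genes (log scale) by log2 difference, psoas minus diaphragm, in steps of 0.25 over 4571 genes. Bottom, the same difference for the 6 genes on the same horizontal axis, with bars of 1 SE. FHL2 at -2.53 and ABLIM1 at -2.28 lie in the thin left tail, ABRA at 1.90 and CNN1 at 2.08 in the right tail, and LMCD1 and SMTN in the bulk.

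Markers of other cell types also differed between the muscles. Of 13 smooth muscle markers, 9 had a probe set, of which MYLK, MYOCD and KCNMB1 were under 4 on every array. Of the 6 tested, 0 were higher in psoas and 2 were lower by limma, CALD1 by -0.60 and RGS5 by -0.71, and ACTA2 differed by -0.02. PDGFRB was added to the lower ones by the fit that blocks on animal (adjusted p = 0.0168, limma). A second probe set of ACTG2, a smooth muscle actin, was higher in psoas by 0.74 (adjusted p = 0.0175, limma), where the one that stood for the gene gave -0.09. The summed level of the list (log2) ran from 12.45 to 13.12 in diaphragm and from 11.94 to 12.86 in psoas, and the ranges overlapped. Such a sum adds unlogged values over the genes, 1 probe set each, so that those of highest value weigh most, here ACTA2, RGS5 and CALD1. The part of smooth muscle in the difference of CNN1 was not tested. Of 9 tested skeletal muscle fibre genes, 3 were higher and 1 was lower in psoas. Their sum was 17.60 to 17.66 in diaphragm and 17.73 to 17.91 in psoas. Lower in psoas were also 6 of 7 tested endothelial genes, 5 of 7 immune genes, 4 of 7 fibroblast genes with 1 higher, and 7 of 7 hepatocyte genes. Of all tested probe sets, 12.4% were called lower. The hepatocyte sum was 8.09 to 11.37 in diaphragm and 7.07 to 7.93 in psoas. The part of these cell types in the differences of FHL2 and ABLIM1 was not tested.

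RNA integrity was read from the actin control probe sets, as the log2 signal at the 3′ end minus that at the 5′ end. It was 3.35 to 4.33 in diaphragm and 3.07 to 3.85 in psoas. The same value from the GAPDH control probe sets was -0.234 to 0.078 in diaphragm and -0.166 to -0.038 in psoas. From the EF1a control probe sets it was 0.697 to 1.268 in diaphragm and 0.81 to 1.503 in psoas. The ranges of the muscles overlapped for each control, and the choice of animals below used actin alone. The 4 animals of higher actin values in diaphragm were then left out, a choice made after seeing the data. Of the animals kept, 4, 6 and 7 were on the high level and only animal 8 was restricted, and only animal 4 was male. RNA quality was therefore not tested apart from feeding and sex, here or wherever animals 4, 6, 7 and 8 alone are named below. Without animals 1, 2, 3 and 5 the muscle difference was -2.35 for FHL2, -2.41 for ABLIM1, 1.86 for ABRA and 1.87 for CNN1. Over all 8 animals these were -2.53, -2.28, 1.90 and 2.08.

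With feed restriction, CNN1 and SMTN were the 2 genes whose animal means did not overlap between feeding levels, both higher under restriction, beside 5.97% of all tested probe sets in either direction and 2.66% in this one. Within a single muscle 0 of the 6 genes was free of overlap, beside 4.88% in diaphragm and 4.98% in psoas. The CNN1 mean of both muscles was 5.94 ± 0.13 on the high level and 6.49 ± 0.34 under restriction (log2, SD, n = 4 animals each), a difference of 0.56 ± 0.13 (SE). That of SMTN was 9.88 ± 0.12 and 10.35 ± 0.19, a difference of 0.46 ± 0.12. In both genes the larger part of this difference lay in psoas.

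In psoas, CNN1 was higher under restriction by 0.92 ± 0.28 (SE), at 7.71 ± 0.61 against 6.79 ± 0.24 (log2, SD, n = 4 each). Only restricted animal 2, at 6.91, lay within the range of the high level. In diaphragm the CNN1 difference was 0.19 ± 0.18. SMTN in psoas was higher under restriction by 0.69 ± 0.20, at 10.39 ± 0.38 against 9.71 ± 0.20, and restricted animal 3 was the one that overlapped. In diaphragm the SMTN difference was 0.24 ± 0.10. Leaving out any 1 animal gave 0.73 to 1.19 for CNN1 and 0.54 to 0.86 for SMTN in psoas, and animal 8, the highest psoas array in both, gave the lowest of these when left out.

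FHL2 and ABRA had their feeding differences in opposite muscles. FHL2 was higher under restriction in diaphragm by 0.96 ± 0.53 (SE), at 7.62 ± 0.88 against 6.67 ± 0.82 (log2, SD, n = 4 each), and differed by 0.05 ± 0.25 in psoas. Animals 2 and 8 made the high end and animal 4 the low end in diaphragm, and the difference was 0.59 without animal 2, 0.54 without animal 4 and 0.72 without animal 8. ABRA was lower under restriction in psoas by 0.96 ± 0.60, at 10.002 ± 0.87 against 10.96 ± 1.07. It differed by 0.11 ± 0.31 in diaphragm, where the sexes ran opposite ways. The 2 restricted males (mean 8.01) lay under the 2 males on the high level (8.69), and the 2 restricted females (9.26) lay above the 2 females on the high level (8.36). In psoas the means were 11.68 on the high level and 9.60 under restriction in males, and 10.24 and 10.40 in females. Whether the feeding difference of ABRA depended on sex was not tested. The psoas difference of ABRA was -0.40 without animal 1, -0.52 without animal 2 and -1.48 without animal 8.

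For ABLIM1 the restricted minus high difference was 0.03 in diaphragm and 0.08 in psoas, and for LMCD1 it was 0.05 and 0.23, each within the spread of the animals. Set as the change of each animal's psoas minus diaphragm difference with restriction, the values were -1.07 ± 0.46 (SE) for ABRA and -0.91 ± 0.47 for FHL2. They were 0.73 ± 0.38 for CNN1, 0.45 ± 0.21 for SMTN, 0.18 ± 0.37 for LMCD1 and 0.05 ± 0.22 for ABLIM1. Without animal 1 the value of ABRA was -0.60, without animal 2 that of FHL2 was -0.40, and without animal 3 that of CNN1 was 0.37. For this contrast limma called 0 of 11467 probe sets, with 696 at an unadjusted p under 0.05.

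Markers and RNA quality were also set beside the feeding differences. The smooth muscle sum in psoas was 11.94 to 12.86 on the high level and 12.16 to 12.56 under restriction. In diaphragm the immune sum was 10.91 to 11.44 on the high level and 10.40 to 10.96 under restriction. Over the 8 diaphragm arrays it correlated at -0.581 with FHL2, -0.656 with CNN1 and -0.804 with SMTN. Over the 8 psoas arrays these correlations were 0.586, 0.031 and 0.219. The hepatocyte genes had a median restricted minus high difference of -1.24 in diaphragm. None of these marker genes was called, as was true of all probe sets. In diaphragm, where FHL2 was higher under restriction, the actin 3′ minus 5′ value had a mean of 3.62 on the high level (3.35 to 4.28). Under restriction its mean was 3.996 (3.36 to 4.33). FHL2 correlated with this value at 0.248 over the 8 diaphragm arrays. In psoas, where CNN1 and SMTN were higher under restriction, its mean was 3.53 on the high level and 3.36 under restriction, and CNN1 and SMTN correlated with it at -0.475 and -0.588. These correlations are descriptions picked from a larger set, and the part of these measures in the feeding differences was not tested.

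**Figure D3:**
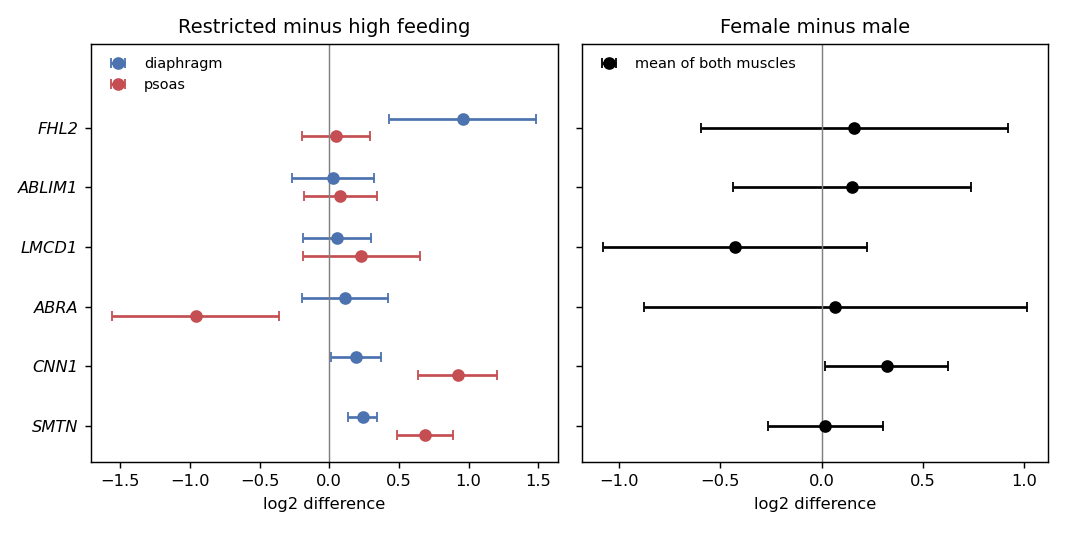
Left, log2 difference, restricted minus high feeding, of the 6 genes in diaphragm (blue) and psoas (red), with bars of 1 SE. Right, log2 difference, female minus male, of the mean of both muscles, with 95% confidence intervals. CNN1 at 0.92 and SMTN at 0.69 lie to the right in psoas, ABRA at -0.96 to the left, and in the right panel CNN1 at 0.32 has the one interval that leaves out 0, before adjustment.

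Sex took no part in the choice of the genes and was tested. No gene of the 6 was called between the sexes by limma, beside 0.183% of all tested probe sets, and 1 of them, CNN1, had an unadjusted p under 0.05, as had 9.17% of all. CNN1 animal means were 5.99, 6.17, 6.30 and 5.76 in males 1 to 4 and 6.55, 5.95, 6.05 and 6.95 in females 5 to 8. The sexes overlapped, with the 2 restricted females highest. The difference, female minus male, was 0.32 ± 0.13 (SE; 95% confidence interval 0.02 to 0.62; adjusted p = 0.525, limma, n = 4 animals per sex), and leaving out any 1 animal gave 0.20 to 0.41.

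LMCD1 animal means were 11.99, 12.04, 11.49 and 11.15 in males 1 to 4 and 11.46, 11.75, 10.63 and 11.11 in females 5 to 8. They overlapped, with a difference of -0.43 ± 0.28 (SE; 95% confidence interval -1.08 to 0.23; adjusted p = 0.724, limma). The differences were 0.16 (interval -0.60 to 0.92) for FHL2, 0.15 (-0.44 to 0.74) for ABLIM1, 0.07 (-0.88 to 1.02) for ABRA and 0.02 (-0.27 to 0.30) for SMTN. Their adjusted p-values in limma lay between 0.912 and 0.980. The intervals of FHL2 and ABRA leave room for differences near 2-fold, while that of SMTN does not reach 0.31 on either side.

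For a dependence of the psoas minus diaphragm difference on sex, limma called 0 of 11467 probe sets, and 1161 had an unadjusted p under 0.05. The 6 adjusted p-values lay between 0.605 for ABRA and 0.966 for FHL2. The largest of the 6 was that of ABRA, smaller in females than in males by 0.78 on the log2 scale (95% confidence interval of the change -1.83 to 0.27). The second LMCD1 probe set gave -0.97 (adjusted p = 0.501, limma) where the leading one gave -0.50.

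The spread between animals differed by gene and muscle. In diaphragm FHL2 had an SD of 0.94, higher than that of 98.8% of the 4571 tested genes, and SMTN an SD of 0.17, higher than 29.9%, where the median gene had 0.220. In psoas ABRA had an SD of 1.04 (99.1%) and LMCD1 0.73 (97.2%), followed by CNN1 at 0.65 (95.9%) and SMTN at 0.46 (88.8%), where the median gene had 0.245. FHL2 had its larger SD in the muscle where it was high, and ABRA and CNN1 likewise. In their lower muscle, FHL2 (4.15 to 5.12) and CNN1 (4.60 to 5.56) lay near the lower end, where values are compressed. These SDs span both feeding levels, whose values were known when the genes were chosen. ABLIM1, at 0.43 in diaphragm and 0.39 in psoas, varied about equally in both.

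Within psoas, FHL2 and ABLIM1 followed each other over the 8 animals (Pearson r = 0.810, Spearman's rank correlation = 0.905, r = 0.904 without the 2 animals farthest from the FHL2 median), while in diaphragm r was 0.155, or 0.674 without the 2 farthest. Over all 16 arrays, with muscle, sex and feeding removed, it was 0.275. CNN1 and SMTN had r = 0.669 and a rank correlation of 0.714 in psoas, 0.654 without the 2 farthest animals, and r = 0.174 in diaphragm. Both were higher under restriction in psoas, and with muscle, sex and feeding removed r over the 16 arrays was 0.324. FHL2 and ABRA had r = 0.689 in psoas but 0.0142 without the 2 farthest, so that this value rests on those animals. These 3 pairs were picked from 15 pairs in each muscle after their values were seen, and genes on the same array share its RNA.

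The 3 genes most like each of the 6 were taken by Pearson r over the 16 arrays, among 4570 other tested genes. For FHL2 they were LOC100511937 (0.954), FAM46A (0.919) and LOC100524254 (0.904). For ABLIM1 they were DKK3 (0.983), SMIM7 (0.961) and SKAP2 (0.952), and for CNN1 GPI (0.936), OLA1 (0.931) and MYH2 (0.922). Since the 16 arrays share 2 muscles, such values mostly restate the muscle difference. After muscle, sex and feeding were removed, DKK3, a secreted glycoprotein, still followed ABLIM1 at 0.869, whereas MYH2, the myosin of fast oxidative fibres, followed CNN1 at 0.154. The DKK3 means were 5.93 in diaphragm and 3.90 in psoas.

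For ABRA the list was DYNC1I1 (0.899), PEG10 (0.890) and PPP2CB (0.885). For LMCD1 it was MRLC2, a myosin regulatory light chain (0.809), CMSS1 (0.769) and ARMCX3 (0.765). For SMTN it was ACTN2, the alpha-actinin of the Z-disc (0.859), DNAJC19 (0.840) and PTCD3 (0.832). After the removal of muscle, sex and feeding, MRLC2 followed LMCD1 at 0.884 and ACTN2 followed SMTN at 0.839. Within psoas alone these were 0.926 and 0.899.

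The other genes around the 6 were taken from lists of the SRF pathway and of related families, which held 57 tested genes. Of these, limma called 19 between the muscles, beside 27.0% of all tested probe sets (14.6% higher and 12.4% lower in psoas), and 0 between feeding levels or sexes. At an unadjusted p under 0.05 were 5 of the 57 for feeding (8.77%, beside 12.7% of all probe sets) and 8 for sex (14.0%, beside 9.17%), in the animal means. SRF itself, its MRTF coactivators and the LIM kinases had no probe set with a single symbol and were not analysed here.

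Among the SRF pathway regulators 9 of 26 genes were tested, and 5 were lower and 0 higher in psoas by limma, with a median of -0.43 beside 0.04 over all genes. RHOB, a small GTPase, was lower by 0.63 ± 0.17 (log2, SE; adjusted p = 0.0155), and ROCK1, a kinase of the actin cytoskeleton, by 0.60 ± 0.17 (adjusted p = 0.0203). TMSB10, which binds actin monomers, was lower by 0.54 ± 0.15 (adjusted p = 0.0141), although its other probe set gave -0.05. CFL2, the muscle cofilin that severs actin filaments, was lower by 0.31 ± 0.10 (adjusted p = 0.0269), although its other probe set gave 0.12. ROCK2 was the fifth, at -0.59, and RHOA, the closest relative of RHOB here, differed by -0.04 ± 0.06 (adjusted p = 0.620). The count of 5 became 2 without animal 3, 3 without animal 5 or animal 6, 3 with no filter and 0 over animals 4, 6, 7 and 8 alone, where the median was -0.39. With the animal as a block it was 6, with ABLIM3 added (adjusted p = 0.0401).

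Of 29 SRF target genes 19 were tested, with 1 higher and 2 lower in psoas and a median of 0.01. The higher one was TPM1, a tropomyosin, at 0.34 ± 0.07 (adjusted p = 0.00262, limma), although its other probe set gave -0.07. Further probe sets of TPM2 and ACTG2, which did not stand for their genes, were also called higher, at 0.99 (adjusted p = 0.00460) and 0.74 (adjusted p = 0.0175). The lower ones were FHL1, the relative of FHL2 that is abundant in skeletal muscle, at -0.25 ± 0.06 (adjusted p = 0.0115), and MYH9, a nonmuscle myosin, at -0.45 ± 0.16 (adjusted p = 0.0494). FOS, EGR1 and ANKRD1, which respond within hours to stimulation or stretch, had standard errors of 0.75, 0.48 and 1.10 and were not called. MYH9 was called under 6 of 17 settings, and ACTB, at -0.23, was added by the fit that blocks on animal (adjusted p = 0.0451).

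Of 44 other LIM-domain genes 15 were tested, with 2 higher and 5 lower in psoas and a median of -0.25. CSRP2, a LIM protein known from smooth muscle, was lower by 1.13 ± 0.18 (adjusted p = 5.28e-04, limma), LMO2 by 0.60 ± 0.12 and LIMA1, an actin-bundling LIM protein, by 0.42 ± 0.10. FHL1 and TES, a focal adhesion protein, were the other two. LIMS2, a partner of integrin-linked kinase, was higher by 0.78 ± 0.19 and LMO4 by 0.61 ± 0.16. Over animals 4, 6, 7 and 8 alone, a fit with fewer arrays, 0 of the 15 were called and the median was again -0.25.

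Of 7 relatives of calponin and smoothelin 5 were tested, and 2 were lower in psoas, TAGLN2 by 0.78 ± 0.17 (adjusted p = 0.00353, limma) and CNN3, the acidic calponin, by 0.39 ± 0.12. CNN3 thus differed the other way from CNN1, though it was not called without animal 2, 5 or 7. SMTNL2, a smoothelin-like gene, differed by 0.64 ± 0.30 (adjusted p = 0.120), and with the animal as a block its adjusted p was 0.00788. The median of the 5 was -0.27.

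The list named for calcineurin and GATA partners of LMCD1 held 16 genes. Of these 5 were tested, RCAN1, MYOZ1, PPP3CA, PPP3CB and ACTN2, with no GATA factor among them. Higher in psoas were 3. They were PPP3CA by 0.61 ± 0.13 and PPP3CB by 0.28 ± 0.07, both catalytic subunits of calcineurin, and MYOZ1, a Z-disc protein that binds calcineurin, by 0.17 ± 0.06. Their adjusted p-values in limma were 0.00313, 0.00664 and 0.0360, and the median of the 5 was 0.28. Another PPP3CB probe set gave -0.29, and MYOZ1 was called under 8 of 17 settings. Of 17 Z-disc and stretch response genes 10 were tested and 0 were called, with a median of -0.03.

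**Figure D4:**
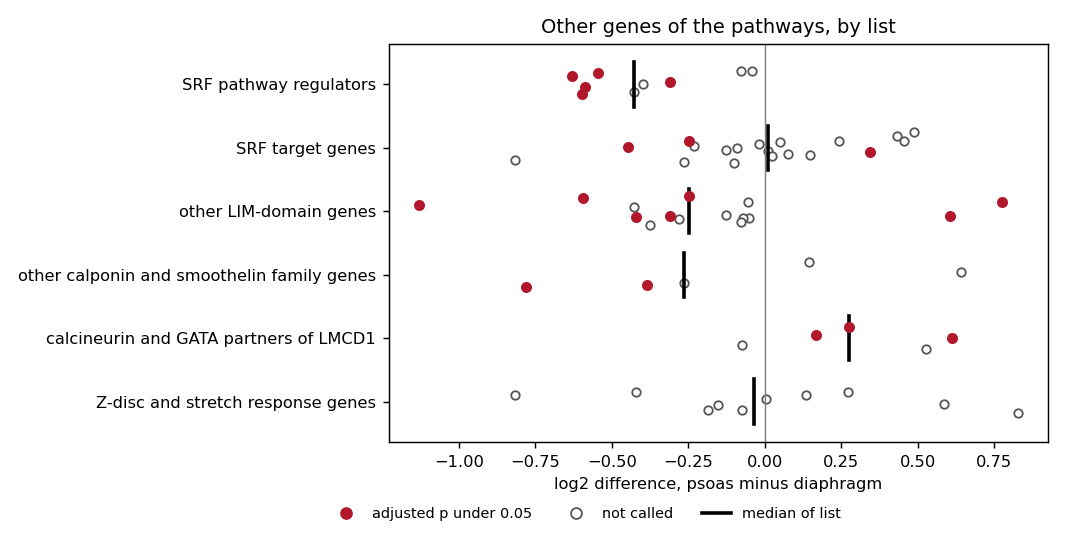
Log2 difference, psoas minus diaphragm, of the tested genes of 6 lists around the SRF pathway, with 1 point per gene, red where limma's adjusted p is under 0.05, and a black bar for the median of each list. The called SRF pathway regulators and calponin relatives all lie left of 0, and the LIM-domain genes lie on both sides. The called genes of the list named for calcineurin and GATA partners, in which no GATA factor was tested, all lie right of 0. Vertical scatter has no meaning.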

How the data were processed

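Total RNA of 16 muscle samples was hybridised to Affymetrix porcine arrays, per the labels' protocols. The log2 values that the authors deposited were GCRMA values, per the submitters' processing notes. No GCRMA version and no statement on joint processing of the arrays was found in the sources used here. The values were used without further scaling. The number of arrays limits the precision.

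Of the probe sets, 10099 had 1 gene symbol in the platform annotation, 198 had several and 13826 had none. Probe sets at or above 4 in at least 4 of 16 arrays were tested (11467, without 124 control probe sets) in limma 3.58.1 (lmFit, then eBayes; R 4.3.3), and p-values were adjusted over all of them after Benjamini and Hochberg. Every adjusted p is from these fits. Muscles were compared on 16 arrays with sex and feeding as covariates and no term for the animal. Feeding and sex were compared on 8 animal means, or on 8 arrays within a muscle, each with the other factor as covariate. Their effects on the muscle difference were fitted on 8 psoas minus diaphragm differences. The scripts were tested on simulated data.

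The members and lists were chosen with earlier results of these data known. The rule for named genes took all 6 members with all their probe sets, up to 4 called genes of smallest p per list and direction, and the 3 genes most correlated with each member. Genes named as uncalled or as a further called gene were chosen after their values were seen.

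The animal numbers pair the arrays, since the labels give both muscles of each animal the same number. Residuals of the 2 arrays of an animal correlated between 0.0724 and 0.257.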

Additional observations from a re-analysis of the deposited data

Results flagged for a closer look

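In 3 of 36 groups of 4 arrays (1 muscle and feeding level, 1 member probe set), the highest or lowest array stood apart from the other 3 by more than 0.829 of the group's range. Chance flags about 1 in 20 groups. ABLIM1 in psoas on the high level was lowest in animal 4, at 5.87, where the next value was 6.75. LMCD1 in psoas under restriction was highest in animal 2, at 12.29, where the next was 11.45. CNN1 in diaphragm under restriction was lowest in animal 3, at 4.60, where the next was 5.43.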

How the results depend on the processing

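Alternatives were no filter, a filter of 8 arrays, quantile or median scaling, a trended robust spread, no covariate, the animal as a block and leaving out each animal. Scaling shifted no array by over 0.08 on the log2 scale. The 3094 probe sets called between muscles became 2162 to 2906 without 1 animal, and 405 over animals 4, 6, 7 and 8 alone, chosen after seeing the data. With the animal as a replicate block 3836 were called, 3014 of them shared, and 39 rather than 21 between the sexes, 16 shared. By the balance of the design, the block cannot move the members' estimates. Calls between sexes were 13 to 23 without 1 animal. Calls between feeding levels, 0 in the main analysis, were 0 to 1 without 1 animal in the animal means, 0 to 2 in diaphragm and 0 to 1 in psoas. They were 1 in diaphragm and 2 in psoas with no filter, and 2 in diaphragm with no covariate. The muscle differences by feeding and by sex had 0 calls under every alternative run.

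No sex result of a member was called, and 7 of the 12 changed sign under some alternative. Without 1 animal they ran from -0.12 to 0.42 for FHL2, -0.014 to 0.34 for ABLIM1, -0.30 to 0.39 for ABRA and -0.073 to 0.093 for SMTN. For the muscle difference by sex they ran from -0.61 to 0.20 for FHL2, -0.12 to 0.20 for ABLIM1 and -0.52 to 0.24 for CNN1. Other ABLIM1 probe sets gave -0.058 and -0.096 for sex, and one gave -0.34 for the muscle difference by sex. The cause was not tested. In 192 repeats of the members' sex tests, 0 passed the threshold in limma.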
